A study of Mus musculus with 8 samples.

Results

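The 10 genes described here encode ligands, receptors and junction proteins of the vessel wall, and they were picked by symbol from the 16994 genes of a count table of mouse heart tissue. They are the VEGF ligands Vegfa and Vegfb, the VEGF receptors Kdr and Flt1, the angiopoietin ligands Angpt1 and Angpt2 with their receptor Tek, the apelin receptor Aplnr, and the endothelial adhesion genes Pecam1 and Cdh5. No measured value entered the rule that picked them, though the genes were chosen with earlier results of these data known. All 10 were present in the table, and all 10 passed the filter of an average of 1 CPM or more (CPM, a gene’s counts relative to the size of its library).

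RNA of whole tissue was sequenced in 8 libraries, 1 for each of 2 genotypes in each of 4 regions. The genotypes were wild-type (WT) mice and mice with a whole-body knockout of Tigar (TKO), so that the cells of the vessel wall carried the deletion as well as the cardiomyocytes. In male mice of 16 weeks the left anterior descending coronary artery was tied off for good, and the infarct, border and remote zones were collected 4 weeks later. Tissue of the left ventricle from each genotype served as the reference, and the sources used here do not state whether those hearts had a sham operation. The infarct zone libraries held pooled RNA of 3 mice, and the number of mice behind each of the other libraries is not given in the sources used here. With 1 library per genotype and region there were no replicate mice. The zones were cut from infarcted hearts, and whether the 3 zone libraries of a genotype hold RNA of the same mice is not stated, so they may not be independent of each other. The p-values below come from fits in which the genotypes stood in as replicates of a region, or the regions as replicates of a genotype, and they bear on these libraries only.

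Total counts ran from 27429240 to 33799249 per library. Tigar had 1066 to 2215 counts in the WT libraries and 51 to 87 in the TKO libraries, so the targeted gene followed the labels in all 8. Levels are given as TMM-scaled CPM, in which library sizes are adjusted so that the typical gene has the same level in every library. The scaling factors of the infarct zone libraries stood apart, at 1.54 in WT and 1.26 in TKO, against 0.866 to 0.956 in the other 6. When libraries were instead scaled to their total counts, the median gene rose by 0.71 on the log2 scale between left ventricle and infarct zone and by 0.66 between remote and infarct zone. Values under both scalings are therefore given for the members in the infarct zone.

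New vessels form when endothelial cells sense VEGF-A through the receptor tyrosine kinase KDR, while FLT1 binds the same ligand and can hold it away from KDR. VEGF-B binds FLT1 and is abundant in heart muscle. Angiopoietin-1 from cells around the vessel keeps TEK (also called TIE2) active and the vessel wall quiet, and angiopoietin-2, made by the endothelium itself, competes with it where vessels are remodelled. Apelin acts on the G protein-coupled receptor APLNR during vessel growth, and PECAM1 and VE-cadherin, the product of Cdh5, hold endothelial cells together.

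The genes lie on 8 chromosomes of the mouse build GRCm38. The 2 VEGF ligands are Vegfa at chr17:46016993-46032369 and Vegfb at chr19:6982473-6987651, both on the minus strand. Their receptors Kdr at chr5:75932827-75978458 and Flt1 at chr5:147561604-147726011 share a chromosome and are also on the minus strand. The angiopoietin genes are Angpt1 at chr15:42424723-42676977 and Angpt2 at chr8:18690263-18741562, on the minus strand, and their receptor Tek is at chr4:94739289-94874976 on the plus strand. Aplnr is at chr2:85136225-85139923 and Cdh5 at chr8:104101625-104144511, on the plus strand, and Pecam1 is at chr11:106654217-106750628 on the minus strand. Exons of Angpt1 overlap 737 bases of an antisense gene, Gm17473, which was not counted in the table, and no exon of the other 9 genes overlapped another gene. Counts were summed per gene, so the secreted and membrane forms of Flt1 and the splice forms of Vegfa cannot be told apart here.

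RefSeq promoter windows were at hand for 5 of the 10 genes, with 6 windows in all because Vegfa has 2 start sites in the table. The 250 bases before the start site are shown for Vegfb and Kdr, which had lower levels in the infarct zone, for Tek, which had nearly the same level everywhere, and for Flt1, whose level differed most between the genotypes in the left ventricle among the receptors of VEGF. All 4 are read 5′ to 3′ on the strand of the gene from GRCm38.p6, and capitals mark the letters searched on both strands, namely the ETS core (CGGAAG or AGGAAG), which endothelial transcription factors bind, and the hypoxia response core (ACGTG or GCGTG). Their positions are chr19:6987652-6987901 (minus strand) for Vegfb, chr5:75978456-75978705 (minus strand) for Kdr, chr4:94739039-94739288 (plus strand) for Tek and chr5:147726012-147726261 (minus strand) for Flt1.
Vegfb: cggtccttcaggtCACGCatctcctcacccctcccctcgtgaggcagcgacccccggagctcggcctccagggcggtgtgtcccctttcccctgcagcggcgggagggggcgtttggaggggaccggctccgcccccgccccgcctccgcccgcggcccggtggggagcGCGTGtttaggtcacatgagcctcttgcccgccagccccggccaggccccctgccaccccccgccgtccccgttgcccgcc
Kdr: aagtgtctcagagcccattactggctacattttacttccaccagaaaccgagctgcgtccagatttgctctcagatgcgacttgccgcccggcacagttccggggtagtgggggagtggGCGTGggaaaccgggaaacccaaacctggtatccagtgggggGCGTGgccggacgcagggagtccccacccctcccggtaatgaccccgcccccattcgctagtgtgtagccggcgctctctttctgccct
Tek: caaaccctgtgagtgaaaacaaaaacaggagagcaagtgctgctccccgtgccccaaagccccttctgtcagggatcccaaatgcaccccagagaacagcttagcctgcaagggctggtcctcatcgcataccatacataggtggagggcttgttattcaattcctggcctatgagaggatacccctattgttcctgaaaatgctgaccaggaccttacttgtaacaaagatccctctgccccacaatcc
Flt1: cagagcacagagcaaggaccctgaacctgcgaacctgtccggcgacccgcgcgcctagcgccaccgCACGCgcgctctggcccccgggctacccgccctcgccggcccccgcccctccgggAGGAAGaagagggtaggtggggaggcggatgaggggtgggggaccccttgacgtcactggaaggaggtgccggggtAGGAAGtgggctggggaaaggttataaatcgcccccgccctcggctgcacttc
The Vegfb and Kdr windows each held 2 hypoxia response cores and 0 ETS cores. Flt1 held 1 hypoxia response core and 2 ETS cores, and Tek held none of either. Of the Vegfa windows, that of the upstream start held neither and that of the downstream start held 2 hypoxia response cores. Among 32851 promoter windows of the same length, 39.2% held an ETS core and 38.6% a hypoxia response core, so each is a common sequence. The G and C content was 76.4% for Vegfb, 61.6% for Kdr, 51.2% for Tek and 70.4% for Flt1, against a median of 52.4% over all windows. These matches describe the letters of the windows and are not evidence of binding.

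Per kilobase of the longest coding transcript, the median level over the 8 libraries was highest for Vegfb, at 160 CPM per kb, followed by Vegfa at 75.1. The junction genes came next, with Pecam1 at 42.5 and Cdh5 at 39.9 CPM per kb. The receptors followed, with Kdr at 22.8, Flt1 at 16.5, Tek at 12.1 and Aplnr at 6.41 CPM per kb. Angpt1 stood at 6.20 and Angpt2 was lowest, at 1.23 CPM per kb. Within libraries the order of neighbours was the same in all 8 for 6 of the 9 neighbouring pairs, and in 7 of 8 for Vegfa above Pecam1 and for Flt1 above Tek. Aplnr exceeded Angpt1 in 3 of the 8 libraries, so those 2 had no fixed order. Only the pairs Tek and Aplnr, and Angpt1 and Angpt2, had ranges over the libraries that did not overlap.

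**Figure D1:**
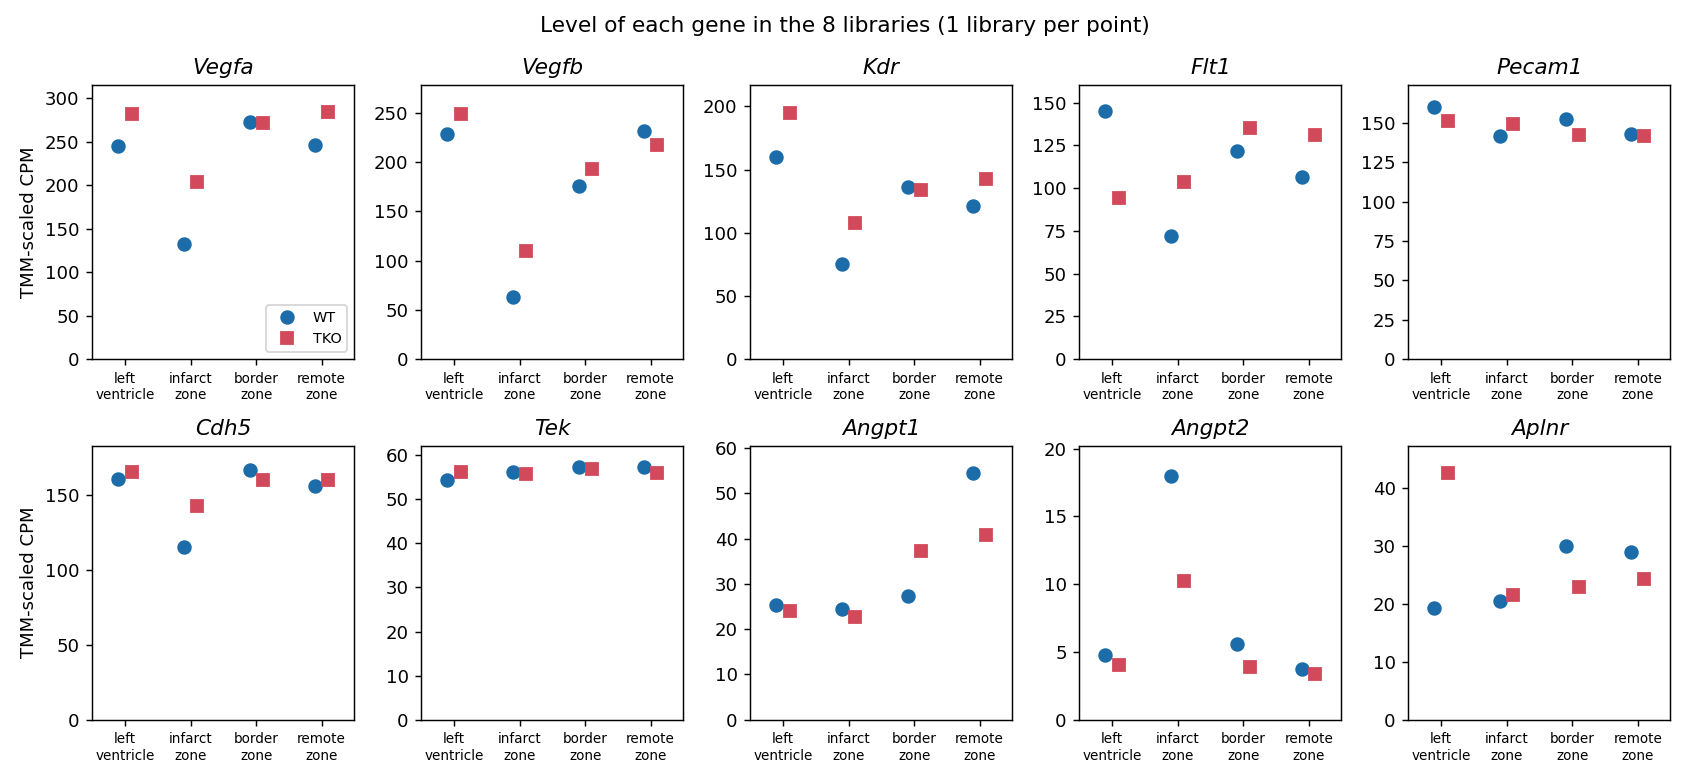
Level of each of the 10 genes (TMM-scaled CPM, linear axes from 0) in the 4 regions, with a circle for the WT library and a square for the TKO library of each region and 1 library per point. On this scale Vegfa, Vegfb and Kdr are lowest in the 2 infarct zone libraries, Angpt2 is highest there, and Tek lies between 54.4 and 57.4 CPM throughout.

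Among the ligands, Vegfb differed most between the infarct zone and the left ventricle in the downward direction. Its level was 228 CPM in the WT left ventricle and 248 in the TKO left ventricle, 62.6 and 109 in the WT and TKO infarct zones, 176 and 193 in the border zones, and 232 and 217 in the remote zones. The infarct zone libraries were the 2 lowest and did not overlap the other 6, which lay within 1.41-fold of each other. In the fit over all 8 libraries (edgeR quasi-likelihood test, Benjamini-Hochberg adjustment over 12999 genes) Vegfb fell by 1.499 ± 0.22 (SE) on the log2 scale against the left ventricle, with an adjusted p of 0.00223, and by 1.42 ± 0.22 against the remote zone, with an adjusted p of 0.00395. It also fell when libraries were scaled to total counts, by 0.83 against the left ventricle (adjusted p = 0.00267 by edgeR) and by 0.80 against the remote zone (adjusted p = 0.00380). In tissue RNA, fewer cells of a type and less RNA of the gene per cell cannot be told apart.

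Vegfa, the main driver of vessel growth, had 245 CPM in the WT left ventricle and 282 in the TKO left ventricle, 132 and 204 in the infarct zones, 273 and 272 in the border zones, and 247 and 285 in the remote zones. The 2 infarct zone libraries were again lowest, while the other 6 lay within 1.16-fold of each other. Vegfa fell by 0.66 ± 0.17 on the log2 scale against the left ventricle (adjusted p = 0.0174 by edgeR) and by 0.68 ± 0.17 against the remote zone (adjusted p = 0.0189). Scaled to total counts, the difference from the left ventricle was 0.01 (adjusted p = 0.955) and that from the remote zone -0.05 (adjusted p = 0.774), so the fall was one relative to the typical gene and not relative to the summed counts. The call against the left ventricle was also lost without the WT left ventricle library, where the difference was -0.63 (adjusted p = 0.0585), and without the WT infarct zone library, where it was -0.43 (adjusted p = 0.0554). The call against the remote zone was lost without the WT infarct zone library, at -0.44 (adjusted p = 0.0632), the WT remote zone library, at -0.64 (adjusted p = 0.122), or the TKO remote zone library, at -0.71 (adjusted p = 0.0890).

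Angpt2, the remodelling angiopoietin, was the 1 member called higher in the infarct zone. It had 4.74 CPM in the WT left ventricle and 4.02 in the TKO left ventricle, 17.99 and 10.2 in the infarct zones, 5.61 and 3.88 in the border zones, and 3.75 and 3.39 in the remote zones. Both infarct zone libraries lay above the other 6, with no overlap. Angpt2 rose by 1.65 ± 0.21 on the log2 scale against the left ventricle (adjusted p = 0.00153 by edgeR), a 3.13-fold difference, and by 1.94 ± 0.21 against the remote zone (adjusted p = 0.00184). With total-count scaling the rises were 2.34 (adjusted p = 0.000212 by edgeR) and 2.58 (adjusted p = 0.000229). Angpt2 was the least sequenced member, with 102 to 761 counts per library.

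Angpt1, the stabilizing angiopoietin, followed a different course. Its level was 25.4 and 24.1 CPM in the WT and TKO left ventricle, 24.5 and 22.8 in the infarct zones, 27.4 and 37.3 in the border zones, and 54.5 and 40.7 in the remote zones. The 2 remote zone libraries were the highest of the 8, and the infarct zones were at the level of the left ventricle, with a difference of -0.07 ± 0.20 on the log2 scale (adjusted p = 0.792 by edgeR) that turned to a called 0.62 (adjusted p = 0.0207) with total-count scaling. Against the remote zone the infarct zone was lower by a called difference of -1.01 ± 0.19 (adjusted p = 0.00705), which lost its call without the WT remote zone library, at -0.74 (adjusted p = 0.0652), and with total-count scaling, at -0.36 (adjusted p = 0.128). In counts, which need no scaling between libraries, Angpt2 over Angpt1 was 0.187 for left ventricle, 0.735 for infarct zone, 0.205 for border zone and 0.0688 for remote zone in WT. In TKO the same ratio was 0.167 for left ventricle, 0.448 for infarct zone, 0.104 for border zone and 0.0832 for remote zone. The ratio of the 2 opposing ligands was thus highest in the infarct zone and lowest in the remote zone in both genotypes.

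The atrial muscle genes Myl7, Myl4 and Sln were highest in the remote zone of each genotype, as Angpt1 was. In TKO Angpt1 and these 3 genes had the same order of regions, rising from infarct zone to left ventricle, border zone and remote zone. In WT these 3 genes lay above the left ventricle in the infarct and border zones, where Angpt1 was near it. In the WT remote zone Angpt1 was 2.14-fold (95% interval for counting error 1.96 to 2.35) the level of the WT left ventricle, and the atrial light chains Myl7 and Myl4 and the atrial calcium pump regulator Sln were 31.0-, 31.2- and 71.5-fold that level. In the TKO remote zone Angpt1 was 1.69-fold (1.53 to 1.86) the TKO left ventricle, and Myl7, Myl4 and Sln were 11.5-, 9.57- and 12.9-fold. In the TKO border zone Angpt1 was 1.55-fold (1.40 to 1.71), while Myl7, Myl4 and Sln were 1.56-, 1.18- and 1.73-fold. In WT, Angpt1 was at 1.079-fold in the border zone and 0.964-fold in the infarct zone, where Myl7, Myl4 and Sln were 2.87-, 3.12- and 6.14-fold and 2.91-, 3.87- and 6.27-fold. In the TKO infarct zone Angpt1 was at 0.946-fold and these 3 genes were at 0.210-, 0.429- and 0.148-fold. All 4 atrial markers of the list, the natriuretic peptide gene Nppa being the fourth, had counts in every library, and their summed level in WT and TKO was 188 and 299 CPM in the left ventricle, 3045 and 2093 in the infarct zone, 1725 and 494 in the border zone and 2494 and 691 in the remote zone. Nppa alone made up the larger part of each sum. In WT and TKO it had 173 and 280 CPM in the left ventricle and 2987 and 2086 in the infarct zone. It had 1674 and 468 CPM in the border zone and 1962 and 489 in the remote zone. The sum was thus highest in the infarct zone, unlike Myl7, Myl4 and Sln. The part of atrial tissue in the Angpt1 level was not tested.

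Of the receptors, Kdr, the main signalling receptor for VEGF-A, was called lower in the infarct zone. It had 160 CPM in the WT left ventricle and 195 in the TKO left ventricle, 75.5 and 108 in the infarct zones, 136 and 134 in the border zones, and 121 and 143 in the remote zones. The left ventricle libraries were the 2 highest and the infarct zone libraries the 2 lowest. Kdr fell by 0.96 ± 0.15 on the log2 scale against the left ventricle (adjusted p = 0.00262 by edgeR) and by 0.53 ± 0.15 against the remote zone (adjusted p = 0.0256). With total-count scaling the first difference was -0.28 (adjusted p = 0.104) and the second was turned to 0.10 (adjusted p = 0.568). The call against the remote zone was also lost without the WT infarct zone library, at -0.37 (adjusted p = 0.126), the WT remote zone library, at -0.52 (adjusted p = 0.139), or the TKO remote zone library, at -0.55 (adjusted p = 0.116). Kdr over Pecam1 in counts was 0.994 in the WT left ventricle and 0.532 in the WT infarct zone, and 1.29 and 0.722 in the same regions of TKO, a comparison that no scaling between libraries can change. Kdr over Cdh5 was 0.997 and 0.657 in these regions of WT, and 1.18 and 0.757 in TKO. Pecam1 is made by leukocytes as well as by endothelium, and the summed level of 6 macrophage markers in the same libraries is given further on.

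Flt1, the receptor shared by both VEGF ligands, gave 145 CPM in the WT left ventricle and 94.3 in the TKO left ventricle, 72.3 and 104 in the infarct zones, 122 and 135 in the border zones, and 107 and 131 in the remote zones. The 2 left ventricle libraries were the highest and the second lowest of the 8, so the reference groups of the 2 genotypes lay far apart. The difference between infarct zone and left ventricle was -0.46 ± 0.26 on the log2 scale (adjusted p = 0.174 by edgeR), and with total-count scaling it turned to 0.22 (adjusted p = 0.374). Against the remote zone it was 0.18 with total-count scaling (adjusted p = 0.466). With TMM the difference from the left ventricle was called without the TKO left ventricle library, at -0.90 (adjusted p = 0.00530), and stood at 0.04 (adjusted p = 0.830) without the WT left ventricle library. Kdr over Flt1 in counts was 2.07 in the TKO left ventricle and lay between 0.986 and 1.13 in the other 7 libraries.

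Tek, the angiopoietin receptor, had the flattest profile. It lay between 54.4 CPM in the WT left ventricle and 57.4 in the WT remote zone, a range of 1.05-fold over 8 libraries with 1456 to 2380 counts each. The fitted difference between infarct zone and left ventricle was 0.02 ± 0.09 on the log2 scale (adjusted p = 0.883 by edgeR). With total-count scaling Tek was called higher in the infarct zone by 0.70 ± 0.13 (adjusted p = 0.00173), close to the 0.71 of the median gene under that scaling. Against the remote zone it was also called higher only with total-count scaling, at 0.62 (adjusted p = 0.00354), where the median gene rose by 0.66.

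Aplnr, the apelin receptor, had 19.4 CPM in the WT left ventricle and 42.7 in the TKO left ventricle, 20.5 and 21.7 in the infarct zones, 30.0 and 23.0 in the border zones, and 29.0 and 24.4 in the remote zones. Its lowest and its highest level were both in left ventricle libraries, 2.20-fold apart. No region was called different from the left ventricle, and the infarct zone difference was -0.54 ± 0.34 on the log2 scale (adjusted p = 0.224 by edgeR), turning to 0.14 (adjusted p = 0.733) with total-count scaling. Without the WT left ventricle library that difference was -1.11 and called (adjusted p = 0.00468), and without the TKO left ventricle library it was 0.21 (adjusted p = 0.311).

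The 2 junction genes moved little. Pecam1 had 160 and 152 CPM in the WT and TKO left ventricle, 142 and 149 in the infarct zones, 153 and 142 in the border zones, and 143 and 142 in the remote zones, a range of 1.13-fold. Cdh5 lay between 156 and 166 CPM in the 6 libraries outside the infarct zone and had 115 in the WT and 142 in the TKO infarct zone. Its infarct zone libraries were thus the 2 lowest, by a fitted difference of -0.34 ± 0.13 on the log2 scale that missed the threshold (adjusted p = 0.0631 by edgeR) and passed it in DESeq2 (-0.35, adjusted p = 0.0277), while Pecam1 differed by -0.10 ± 0.11 (adjusted p = 0.476). With total-count scaling both were called higher in the infarct zone, Pecam1 by 0.58 (adjusted p = 0.00358) and Cdh5 by 0.34 (adjusted p = 0.0396). Against the remote zone the total-count differences were 0.67 for Pecam1 (adjusted p = 0.00233) and 0.33 for Cdh5 (adjusted p = 0.0420), both called, while neither was called with TMM. All of these rises were smaller than or close to that of the median gene under the same scaling.

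Counted together, 3 members (Vegfa, Vegfb and Kdr) were called lower in the infarct zone than in the left ventricle and 1 (Angpt2) higher, where 28.6% of all genes tested were called lower and 28.2% higher. The median difference of the 10 genes was -0.40 on the log2 scale, against 0.02 over all genes. Against the remote zone, 4 members were lower (the same 3 and Angpt1) and 1 higher, where 24.8% of all genes were called lower and 24.6% higher. Against the left ventricle the members were thus called lower about as often as the genes of the whole table. Against the remote zone the 4 of 10 were not tested against the 24.8% of all genes. With so few genes no excess is read from them. The 2 comparisons share the infarct zone libraries and are not independent of each other. With total-count scaling 1 member (Vegfb) was lower and 5 (Angpt1, Angpt2, Tek, Pecam1 and Cdh5) were higher than in the left ventricle, when 7869 genes of the table were called higher and 1084 lower, and the members' median was 0.28. Against the remote zone it was 1 lower (Vegfb) and 4 higher (Angpt2, Tek, Pecam1 and Cdh5). In that comparison 7705 of 12999 genes were called higher and 918 lower under the same scaling.

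**Figure D2:**
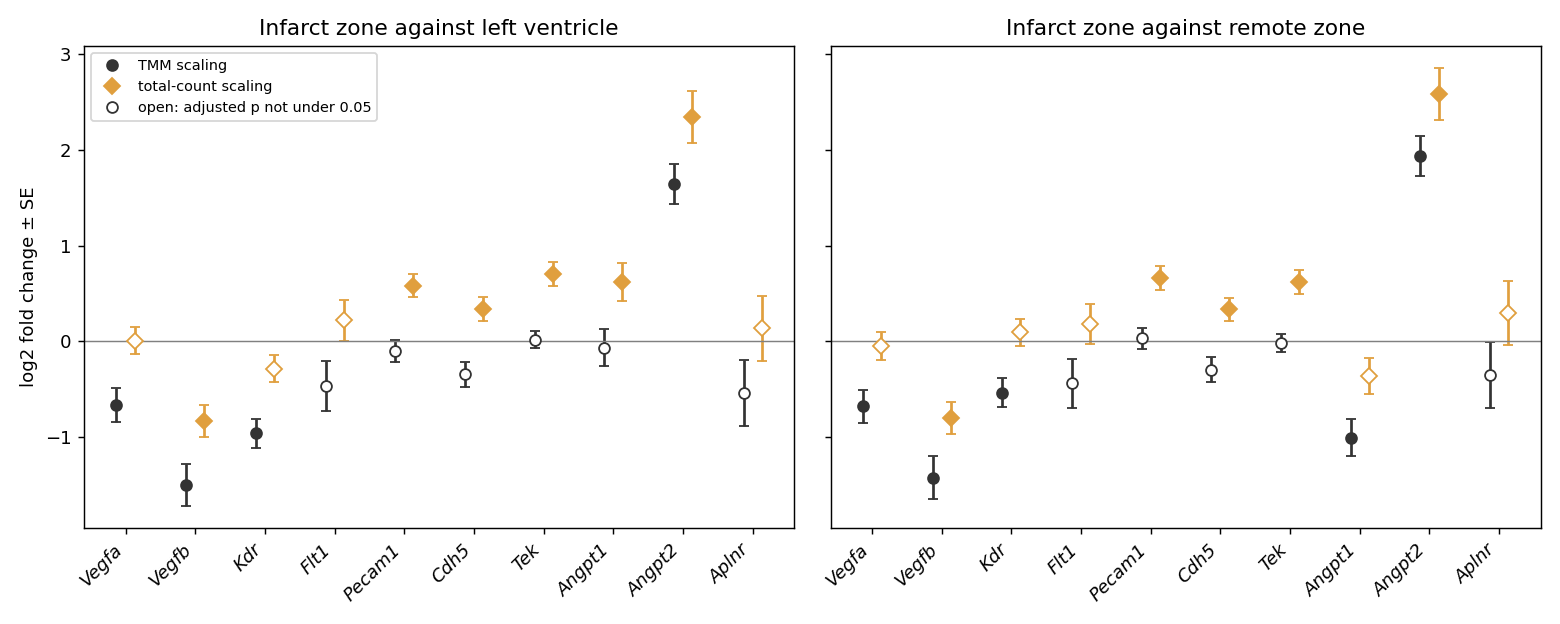
Fitted log2 fold change with its SE for each of the 10 genes, infarct zone against left ventricle (left) and against remote zone (right), with TMM scaling (circles) and total-count scaling (diamonds) and filled symbols for an adjusted p under 0.05. Vegfb stays below 0 and Angpt2 above 0 under both scalings, whereas Vegfa and Kdr reach the zero line or cross it under total-count scaling.

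In the border zone 0 members were called against the left ventricle, where 0.715% of all genes were called in either direction. Kdr was the 1 member with an unadjusted p under 0.05, at -0.38 ± 0.15 on the log2 scale (adjusted p = 0.265 by edgeR), and DESeq2 also called 0. Of all 12999 genes, 2333 had an unadjusted p under 0.05 by edgeR. In the remote zone 0 members were called by edgeR, where 0% of all genes were called. An unadjusted p under 0.05 was found for 1378 of all genes and for 2 members. The members were Kdr, at -0.43 ± 0.15 (adjusted p = 0.415 by edgeR), and Angpt1, at 0.94 ± 0.20 (adjusted p = 0.276). DESeq2 called Angpt1 in the remote zone (0.94, adjusted p = 0.00930), where it called 162 of all 12999 genes.

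Each zone was next set against the left ventricle of its own genotype, with 1 library on each side and so no test, and with the same left ventricle library behind all 3 zones. In the WT infarct zone, Vegfa (0.540-fold), Vegfb (0.274-fold), Kdr (0.473-fold) and Flt1 (0.499-fold) were at least 1.5-fold lower, where 25.8% of all genes were, and Angpt2 was higher (3.79-fold, counting interval 3.14 to 4.60), where 28.5% were. In the TKO infarct zone, Vegfb (0.440-fold), Kdr (0.553-fold) and Aplnr (0.507-fold) were at least 1.5-fold lower, where 20.2% of all genes were, and Angpt2 was higher (2.54-fold, 2.04 to 3.19), where 26.2% were. Vegfa was at 0.725-fold in the TKO infarct zone, and Flt1 at 1.10-fold. With total-count scaling the WT infarct zone had Vegfb at 0.488-fold, Vegfa at 0.959-fold, Kdr at 0.840-fold and Flt1 at 0.886-fold, and Pecam1 (1.57-fold), Tek (1.84-fold), Angpt1 (1.71-fold), Aplnr (1.88-fold) and Angpt2 (6.74-fold) were above the mark. The median gene was at 1.79-fold there under that scaling, above Pecam1 and Angpt1 and near Tek and Aplnr. In the TKO infarct zone the same scaling put Vegfb at 0.639-fold, Kdr at 0.804-fold, Aplnr at 0.736-fold, Flt1 at 1.60-fold and Angpt2 at 3.69-fold. The median gene was at 1.46-fold in that zone. Vegfb and Angpt2 thus passed 1.5-fold in the same direction in both genotypes under both scalings, and Kdr with TMM only.

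Outside the infarct zone few members reached 1.5-fold. In the WT border zone it was 1 member, Aplnr at 1.55-fold, where 18.8% of all genes passed in either direction. The WT remote zone also had 1 such member, Angpt1 at 2.14-fold, where 14.2% of genes passed, and Aplnr joined it at 1.55-fold with total counts. In the TKO border zone it was Angpt1 at 1.55-fold and Aplnr at 0.539-fold, where 15.3% of all genes passed. In the TKO remote zone it was Angpt1 at 1.69-fold and Aplnr at 0.572-fold, where 12.6% did. Aplnr therefore lay above its own left ventricle in WT and below it in TKO, and the level in the 2 left ventricle libraries sets both ratios. Kdr lay below its own left ventricle in all 6 zone libraries, from 0.473-fold in the WT infarct zone to 0.854-fold in the WT border zone.

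**Figure D3:**
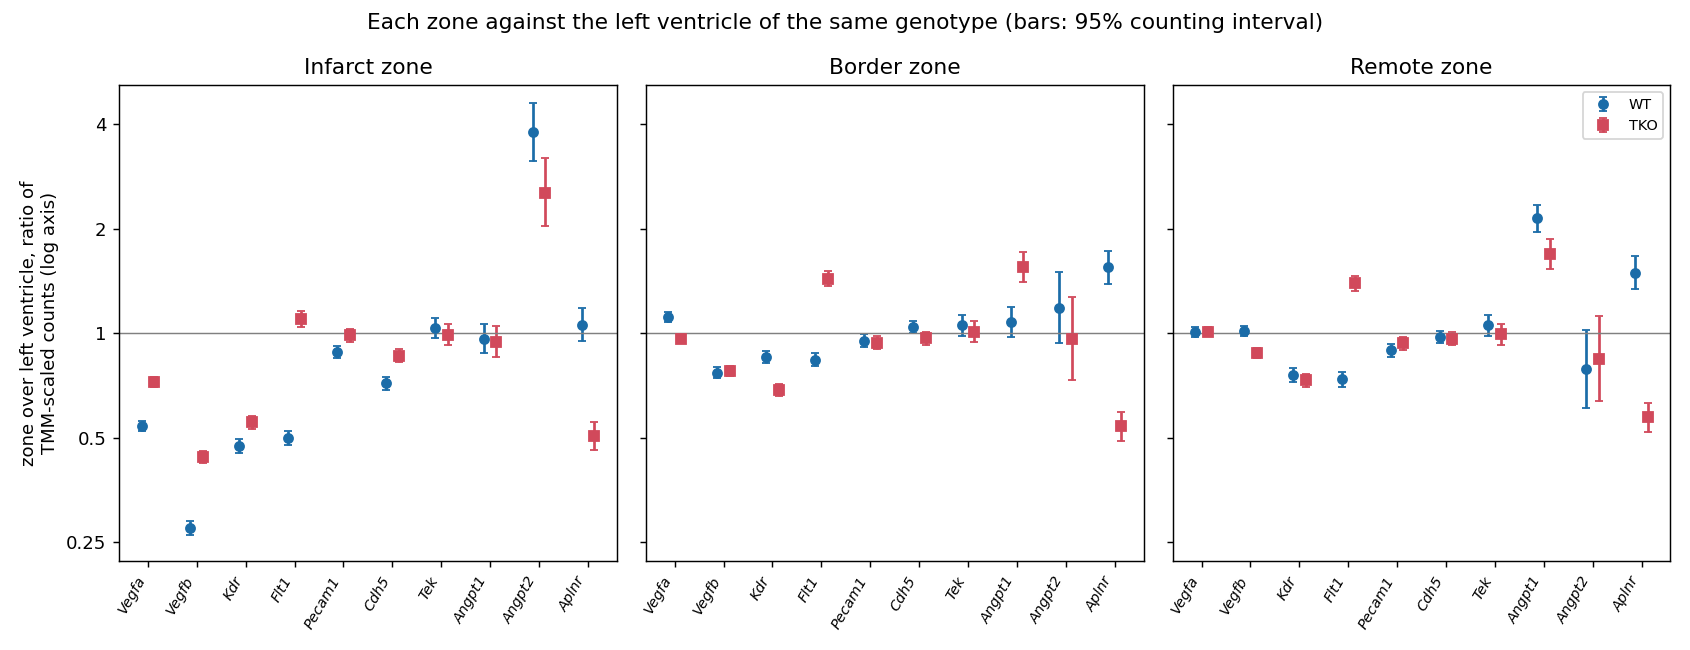
Ratio of TMM-scaled counts of each zone over the left ventricle library of the same genotype (log axis), WT as circles and TKO as squares, with bars for the 95% counting interval, which covers counting error only. Vegfb and Kdr lie below 1 and Angpt2 above 1 in the infarct zone of both genotypes, and Flt1 and Aplnr lie on opposite sides of 1 in WT and TKO in the border and remote zones.

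For the genotypes, the fit over the 4 regions called 0 of the 10 members different between TKO and WT, where 0.138% of all genes were called. Regions stood in as replicates in this fit, though the zones may come from the same hearts. Tigar itself was called lower, at -4.44 ± 0.28 on the log2 scale (adjusted p = 0.00600 by edgeR). Angpt2 was the 1 member with an unadjusted p under 0.05, at -0.45 ± 0.15 (adjusted p = 0.246), and its ratio of TKO over WT was below 1 in all 4 regions, with counting intervals that held 1 in the left ventricle and the remote zone. Kdr, at 0.25 ± 0.11 (adjusted p = 0.310), and Vegfa, at 0.26 ± 0.12 (adjusted p = 0.348), were the next in order of p. DESeq2 also called 0 members, with 3 at an unadjusted p under 0.05. Over all 12999 genes an unadjusted p under 0.05 was found for 2109 by edgeR and for 2025 by DESeq2. Tek and Pecam1 differed by -0.0048 ± 0.063 and -0.03 ± 0.08 between the genotypes.

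Region by region, TKO over WT in the infarct zone was 1.74-fold for Vegfb (counting interval 1.66 to 1.83), 1.54-fold for Vegfa (1.49 to 1.60) and 0.568-fold for Angpt2 (0.4996 to 0.644), and these 3 members passed 1.5-fold where 16.3% of all genes did. Kdr and Flt1 were both at 1.43-fold there, and Cdh5 at 1.24-fold. With total-count scaling Vegfb was at 1.42-fold, Vegfa at 1.26-fold, and Kdr and Flt1 both at 1.17-fold, when the median gene was at 0.820-fold, and Angpt2 alone of the members passed 1.5-fold, at 0.463-fold. In the left ventricle 2 members passed 1.5-fold, Aplnr at 2.20-fold (1.99 to 2.45) and Flt1 at 0.651-fold (0.618 to 0.685), where 14.4% of all genes did. In the border zone 0 members passed, where 11.9% of all genes did, and in the remote zone also 0, where 9.45% did. The members farthest from 1 in those zones were Angpt2 at 0.690-fold and Angpt1 at 1.36-fold in the border zone, and Angpt1 at 0.748-fold in the remote zone.

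**Figure D4:**
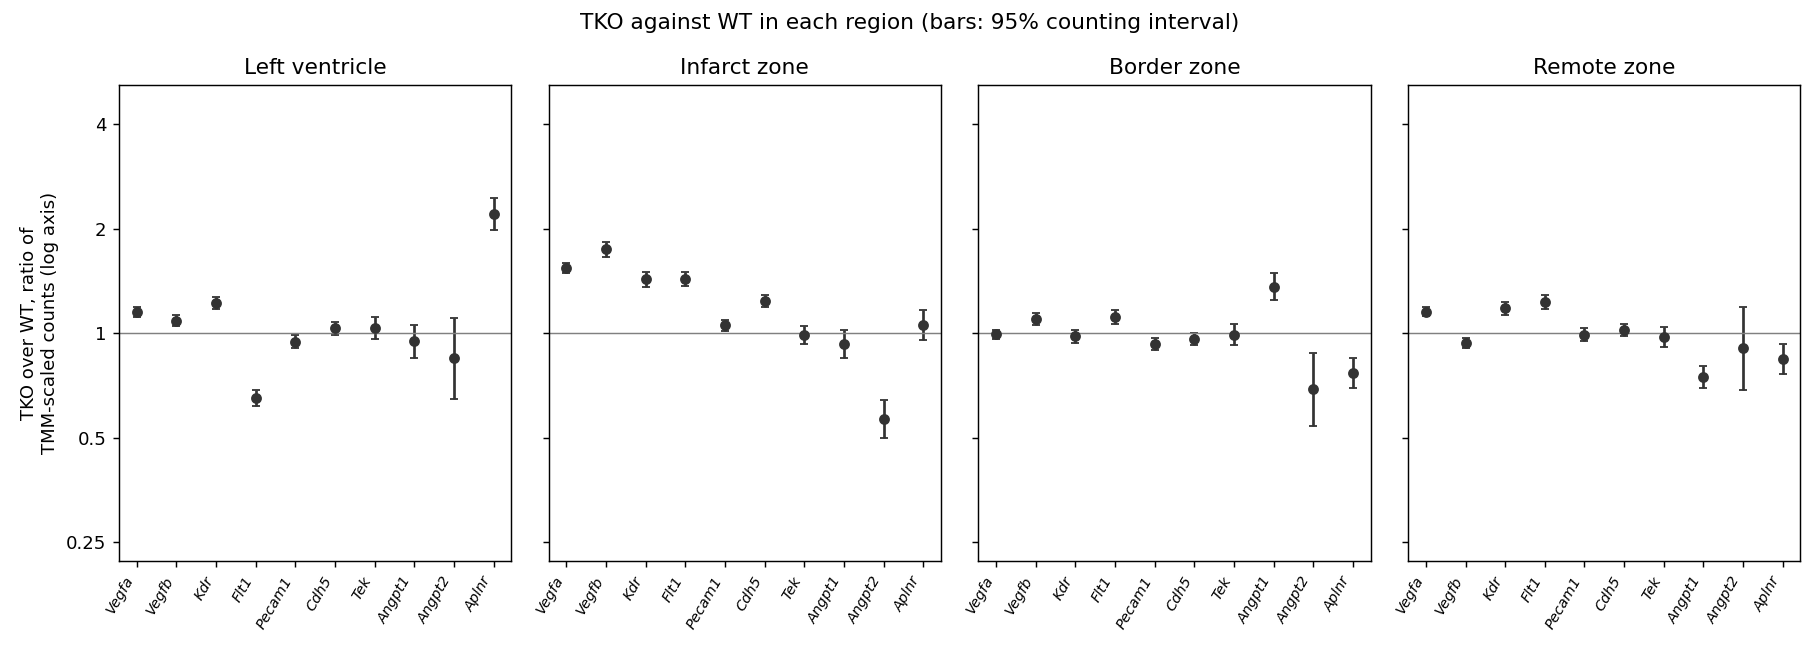
Ratio of TMM-scaled counts, TKO over WT, for each of the 10 genes in each region (log axis), with 1 library on each side and bars for the 95% counting interval. In the infarct zone Vegfa, Vegfb, Kdr and Flt1 lie above 1 (1.43- to 1.74-fold) and Angpt2 below it, and in the left ventricle Aplnr and Flt1 lie farthest from 1.

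Whether the genotype difference in the infarct zone departed from that in the other regions was tested by an added term. That term was fitted separately, with fewer residual degrees of freedom. It called 0 members, where 0.00769% of all genes were called. Of the members, Vegfb (0.75 ± 0.17 on the log2 scale, adjusted p = 0.411 by edgeR) and Vegfa (0.49 ± 0.17, adjusted p = 0.549) had an unadjusted p under 0.05, as did 1018 of all 12999 genes. Without the left ventricle libraries both Vegfb and Vegfa were called, Vegfb at 0.78 (adjusted p = 0.00783 by edgeR) and Vegfa at 0.53 (adjusted p = 0.0434), and DESeq2 called Vegfb over all libraries (adjusted p = 0.0121). Many more genes were called in those fits. Of all 12999 genes, 895 were called without the left ventricle libraries, 818 higher and 77 lower. DESeq2 called 288, with 288 higher and 0 lower. The departure rests on 1 infarct zone library per genotype.

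Other cell types differed along with these levels. The summed level of 8 cardiomyocyte markers was 35382 and 34184 CPM in the WT and TKO left ventricle, 7817 and 16247 in the infarct zones, and 25414 to 31500 in the border and remote zones. In the test of infarct zone against left ventricle 8 of 8 cardiomyocyte markers were lower (most Myh6, at -1.85), 6 of 6 fibroblast markers higher (most Postn, at 4.13) and 6 of 6 macrophage markers higher (most Fcgr1, at 2.31). The fibroblast sum went from 712 and 802 CPM in the left ventricle to 6186 and 5220 in the infarct zone. The macrophage sum went from 150 and 124 CPM in the left ventricle of WT and TKO to 493 and 382 in the infarct zone. Of the lymphocyte markers 3 passed the filter and 2 of these were higher, and the highest level among the 3 was 6.41 CPM, for Cd79a in the WT infarct zone. The 19 genes of the endothelial identity list, none of them a member, summed to 839 and 861 CPM in the left ventricle, 1145 and 1097 in the infarct zone, and 920 to 983 in the border and remote zones. The largest rises in that list were those of Cd34, Vwf and Plvap. From left ventricle to infarct zone, Cd34 went from 105 to 250 CPM in WT and from 125 to 240 in TKO. Vwf went from 49.0 to 126 and from 42.3 to 98.5, and Plvap from 8.65 to 82.6 and from 11.1 to 47.5. With TMM scaling 4 of the 19 genes were called higher, 1 lower and 14 not called. The share of the cell types named here in the members' levels was not tested.

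Other genes of the same pathways were read from lists of ligands, receptors and vessel segments (infarct zone against left ventricle, TMM scaling), in a test in which 28.2% of all genes were called higher and 28.6% lower. With total-count scaling 7869 of all 12999 genes were called higher and 1084 lower, and the counts of each list under that scaling follow its own. Of 11 other VEGF, angiopoietin and apelin pathway genes 9 were tested, of which 3 were higher and 1 lower (7 and 0 with total counts). Vegfd, a ligand of lymphatic growth, rose most, by 3.22 on the log2 scale (adjusted p = 0.000227 by edgeR), and Apln, the ligand of Aplnr, fell by 0.65 (adjusted p = 0.0130), though it stood at 0.04 with total-count scaling. Of the 19 endothelial identity genes 4 were higher and 1 lower (14 and 0 with total counts). Plvap, a protein of fenestrated endothelium, led the rises at 2.64 (adjusted p = 0.00107), and Esam, a junction protein, fell by 0.51 (adjusted p = 0.0232), turning to 0.17 with total-count scaling. The median of this list was 0.16, against -0.40 for the 10 members, and the medians were 0.84 and 0.28 with total counts.

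Of 9 Notch and tip cell genes 3 were higher, led by the netrin receptor Unc5b (1.72, adjusted p = 0.00193 by edgeR), and 2 lower, led by the Notch ligand Dll4 (-0.55, adjusted p = 0.0189), which stood at 0.13 with total-count scaling, under which 5 were higher and 0 lower. Of 7 capillary genes 0 were higher and 4 were lower, led by the carbonic anhydrase Car4 (-1.38, adjusted p = 0.0264), and with total-count scaling 1 was higher and 0 lower. Both of the arterial calls and both of the venous calls were upward, out of 5 and 3 genes tested, with the kinase Bmx (1.82) and the adhesion molecule Selp (3.03) in the lead, and with total counts all 5 and all 3 were higher. Of 5 lymphatic genes 3 rose, led by the chemokine Ccl21a (2.84), and Prox1, a transcription factor of lymphatic endothelium, fell by 0.99 (adjusted p = 0.00332), a call that was lost with total counts at -0.31 (adjusted p = 0.146), when 4 were higher and 0 lower. Among 9 mural genes 6 rose, led by the smooth muscle gene Tagln (1.96), and 2 fell, led by the potassium channel subunit Abcc9 (-1.39), against 7 and 1 with total counts. Of 6 inhibitors of angiogenesis 5 rose and 0 fell (6 and 0 with total counts), with thrombospondin 1 (Thbs1) in the lead at 3.15 (adjusted p = 0.000759). In the genotype test 0 genes of any of these lists were called by edgeR with TMM scaling. With total counts 1 of the other pathway genes was called lower, where 56 of all 12999 genes were called. In the border zone the calls were 1 in each of the lists of other pathway genes, lymphatic genes and inhibitors, all higher, where 0.715% of all genes were called, and in the remote zone 0. With total counts 2 inhibitors were higher in the border zone, where 200 of all genes were called. The other list counts of the border and remote zones stayed the same.

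**Figure D5:**
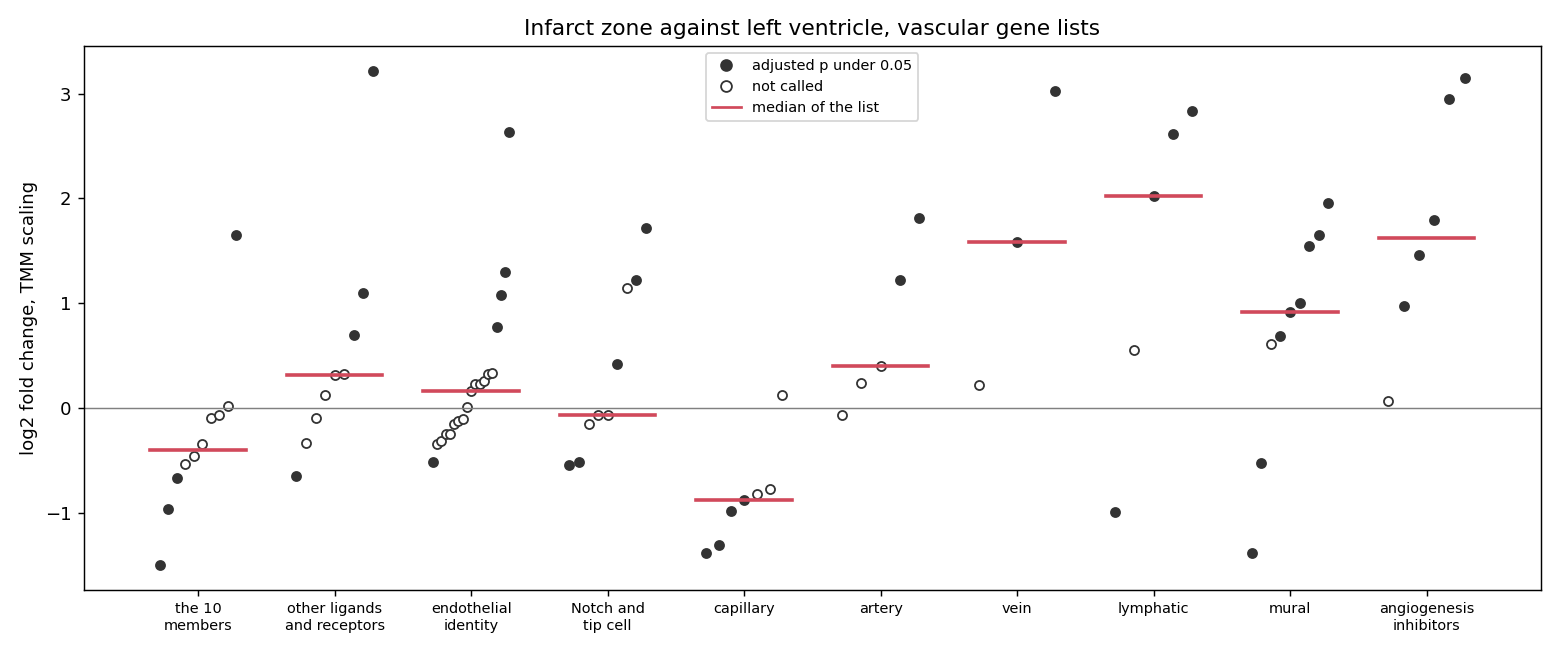
Log2 fold change of infarct zone against left ventricle (TMM scaling) for each tested gene of the 10 members and of the 9 other vascular lists, with filled points for an adjusted p under 0.05 and a bar at the median of each list. The members (median -0.40) and the capillary list (median -0.88) lie mostly below 0 on this scale (medians of 0.28 and -0.21 with total counts), and the vein, lymphatic, mural and inhibitor lists mostly above it.

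Genes whose profiles over the 8 libraries were nearest to each member were ranked by the root mean square difference of log2 CPM after each gene was centred on its own mean, among genes that averaged 10 CPM or more. For Cdh5 the nearest gene was Tie1 (0.028), followed by Celf1 and Dnajc25. For Tek it was Plxnd1 (0.032), then Rab6a and Scyl2, and for Pecam1 it was Neu1 (0.033), then Rnf44 and Vps18. These 3 members vary little, so many genes lie near them. For Vegfb the nearest were Atp5c1 (0.055), Ndufb9 and Map1lc3a, for Flt1 Lrba (0.058), Sema7a and Ly6c1, for Vegfa Mycbp (0.065), Epn1 and Prelid3b, and for Kdr Pacsin2 (0.069), Pkm and Dcakd. The nearest genes lay farther off for Aplnr (Prkar1a at 0.124, Efna1, Acp1), Angpt2 (Apobec1 at 0.170, Rcn3, Nucb2) and Angpt1 (Tmx1 at 0.194, Nrtn, Nudt4). Among the members themselves the closest pair was Pecam1 and Tek, at 0.077.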

How the data were processed

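The authors trimmed reads with Trim Galore 0.6.5, quantified transcripts with kallisto 0.46 against an mm10 transcriptome (versions per the submitters' processing notes) and summed them with tximport, so the deposited values are estimated counts per gene, rounded here to whole numbers. Library kit and strandedness are not given in the sources used here. The 10 genes and the gene lists were chosen with earlier results of these data known.

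Genes that averaged 1 CPM or more (12999 of 16994) were fitted with edgeR 4.0.16 in R 4.3.3 (TMM, quasi-likelihood test, genotype and region as terms, 3 residual degrees of freedom), and p-values were adjusted over all of them by the Benjamini-Hochberg method. The SE of an edgeR difference was taken as its absolute log2 value over the square root of the F statistic. DESeq2 1.42.0 and other scalings, filters and left-out libraries were alternatives. Scripts were tested on simulated data. Ratios of single libraries carry exact 95% binomial intervals, which cover counting error only, and the 1.5-fold count used a prior count of 2. Genes named besides the 10 were Tigar, the called gene with the largest change in each direction of each list, cell type markers, and the 3 nearest profiles of each member. Angpt4, Apela, Ackr1 and Cd3e were not tested, and 1 lymphocyte marker is not reported here. Gene positions came from GENCODE M21 and promoter windows from RefSeq (GRCm38.p6). Each library contributed 1 column, and none was left unused.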

Additional observations from a re-analysis of the deposited data

Results flagged for a closer look

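For 3 members the difference from the left ventricle pointed in opposite directions in WT and TKO, with counting intervals that excluded 1 on both sides. There was 1 library on each side of every ratio, and the difference between the genotypes was not tested by these ratios. Flt1 was at 0.499-fold its own left ventricle in the WT infarct zone and 1.10-fold in the TKO infarct zone, at 0.839- and 1.44-fold in the border zones of WT and TKO, and at 0.735- and 1.39-fold in the remote zones. Aplnr was at 1.55-fold in the WT border zone and 0.539-fold in the TKO border zone, and at 1.49- and 0.572-fold in the remote zones of WT and TKO. Vegfa was at 1.12-fold in the WT border zone and 0.965-fold in the TKO border zone, and at 1.23- and 0.995-fold with total counts. Scaled to the counts of the endothelial identity genes, these Vegfa ratios were 0.953- and 0.886-fold, both below 1. So were those of Flt1 in the WT and TKO infarct zones, at 0.366- and 0.862-fold. The other pairs kept opposite directions under both of these scalings. The ratios of Flt1 and Aplnr share the 2 left ventricle libraries, in which TKO over WT was 0.651-fold for Flt1 and 2.20-fold for Aplnr. In the genotype test without those 2 libraries Flt1 differed by 0.33 ± 0.10 on the log2 scale (adjusted p = 0.131 by edgeR) and Aplnr by -0.18 ± 0.10 (adjusted p = 0.314), against 0.09 and 0.14 with them. For Aplnr the sign turned when they were left out.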

How the results depend on the processing

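The members called, and their directions, were the same under DESeq2 size factors, the removal of mitochondrial DNA-encoded genes, no filter and a filter of 5 CPM, while uncalled differences near 0 of Tek, Pecam1, Cdh5 and Angpt1 changed sign under some of these (Tek in the infarct zone from 0.02 to -0.04 with no filter). Total-count scaling turned Vegfa against the left ventricle to 0.0099 and Kdr against the remote zone to 0.10, and gave 6 members called in place of 4 against the left ventricle and 5 against the remote zone. Leaving out single libraries gave 3 to 5 members called against the left ventricle, and 2 to 6 against the remote zone, where the fewest (2) came without the WT remote zone, and 3 without the TKO remote zone or the WT infarct zone. DESeq2 called 1 member in place of 0 in the remote zone (Angpt1) and 1 for the departure of the infarct zone genotype difference (Vegfb), and without left ventricle libraries 2 were called there. A 2-fold mark left 1 of 40 TKO over WT values in place of 5, and 7 of 60 zone over left ventricle values in place of 15. Scaling the ratios to the counts of the 19 endothelial identity genes moved 59 of 100 outside their counting intervals, against 46 with total counts. Infarct zone over left ventricle in WT and TKO was then 0.758- and 0.777-fold for Tek. It was 0.648- and 0.773-fold for Pecam1 and 0.526- and 0.676-fold for Cdh5. Vegfb (0.201- and 0.345-fold) and Angpt2 (2.78- and 1.99-fold) kept their directions. Over all genes, the genotype calls (18) became 56 with total counts, 342 with DESeq2, 8 with no region term, and 83, 6, 5 and 3 without the left ventricle, infarct, border and remote zone libraries. The border zone calls (93) became 200 with total counts, 576 with DESeq2, 141 at 5 CPM, and 2 to 386 without single libraries, and the remote zone calls (0) 18, 162, 1 and 0 to 65 by the same changes. Those of the departure (1) became 288 with DESeq2, 895 without the left ventricle and 0 without the border or the remote zone, and the infarct zone calls (7385 against the left ventricle, 6430 against the remote zone) fell to 4848 and 2319 at the lowest. The higher and lower calls of the first of these were 3670 and 3715, and 7869 and 1084 with total counts. The cause of these differences was not tested. No paired analysis was possible because each group holds 1 library, so that replicate numbers pair nothing. The genotype test itself sets TKO against WT within each region through its region term. Depth limited Angpt2 most, whose 102 counts in the TKO remote zone gave the widest intervals.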
